A study of Mus musculus with 6 samples.

Results

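The proteasome genes measured here are those whose symbol begins with Psma, Psmb, Psmc, Psmd, Psme, Psmf or Psmg followed by a digit, and 50 of the 19938 genes on the arrays met that rule. Of the 50, 5 are immunoproteasome genes (Psmb8, Psmb9, Psmb10, Psme1 and Psme2) and 45 are the other members. RNA came from CD3+ cells sorted from the spleens of 6 B6D2F1/J mice on day 10 after bone marrow transplantation, 3 mice treated with PBS and 3 with rapamycin, 1 array per mouse. All 6 recipients, F1 hybrids with a B6 parent, were lethally irradiated and reconstituted with marrow of B6 mice from which T cells had been removed. Some transplants of the protocol also contained B6 spleen cells. The labels do not say which mice received them, or whether the sorted cells descend from donor or host. Rapamycin, which blocks the growth-controlling kinase mTOR, was given intraperitoneally at 1.5 mg/kg on every second day up to day 10, and the controls received PBS, a buffered saline, on the same schedule. The labels do not state the age of the mice.

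The proteasome is the barrel-shaped protease that degrades ubiquitin-tagged proteins in the cytosol and nucleus. Its 20S core has outer rings of alpha subunits and inner rings of beta subunits, which carry the cutting sites, and its 19S cap recognises, unfolds and feeds in the substrate. In lymphocytes, and in other cells exposed to interferon, the cutting subunits Psmb6, Psmb7 and Psmb5 are replaced by Psmb9, Psmb10 and Psmb8, which gives the immunoproteasome, a form known for making peptides for MHC class I molecules. Psme1 and Psme2 form the PA28 cap, which interferon also induces. Dividing T cells depend on proteasome activity, and mTOR signalling is known to influence proteasome gene expression in other cells.

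Levels are given on the log2 scale, on which 1 unit is a doubling, and a positive difference means a higher level with rapamycin than with PBS. Levels of different genes are not compared, because the probes of each gene respond differently. Differences were tested with limma across all 19938 genes, with Benjamini-Hochberg adjustment and a threshold of 0.05. The median standard error of a difference was 0.0955 over all genes, and the number of mice limits it. The RNA is bulk RNA of a sorted sample, so fewer cells of a type and less RNA per cell cannot be told apart. Array medians lay between 6.03 and 6.17. T cell markers were present in every sample, with Cd3d between 10.61 and 10.87. Of the 7 B cell markers, Cd79b (6.80 to 7.56) and Cd22 (7.67 to 8.03) lay above the array medians. Cd79a (4.96 to 5.50), Ms4a1, Pax5, Blk and Ebf1 lay below them in every mouse. Neutrophil markers were also present and varied between mice, with S100a8, a granulocyte calcium-binding protein, between 9.69 and 11.51.

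No proteasome gene passed the test, and the differences were small. Of the 50 members, 27 had a positive and 23 a negative difference, from -0.16 to 0.21, with a median of 0.01 against -0.01 over all genes. Limma's threshold was passed by 0 of 50 members, beside 0.00502% of all genes, and the lowest adjusted p of a member was 0.9998. At an unadjusted p under 0.05 there was 1 member of 50, beside 4.67% of all genes. PBS and rapamycin mice did not overlap for 4 members, or 8%, beside 9.42% of all genes. Rapamycin mice were the higher ones for 1 of these, beside 3.14% of all genes, and the lower ones for 3, beside 6.28%.

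For 50 of 50 members the 95% interval of the difference lay within a 1.5-fold change in either direction (0.58 on the log2 scale), which held for 95.5% of all genes and for 94.3% of the 9969 genes above the median level. These are intervals of single genes and are not adjusted for their number. The widest reach upward was that of Psmb10, to 0.49, and the farthest downward that of Psmb11, to -0.37. Absolute differences had a median of 0.04 over the members, 0.07 over all genes and 0.06 over the genes above the median level, to which 48 members belonged. A difference under 0.2 was measured for 49 members, and the exception was Psma8.

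**Figure D1:**
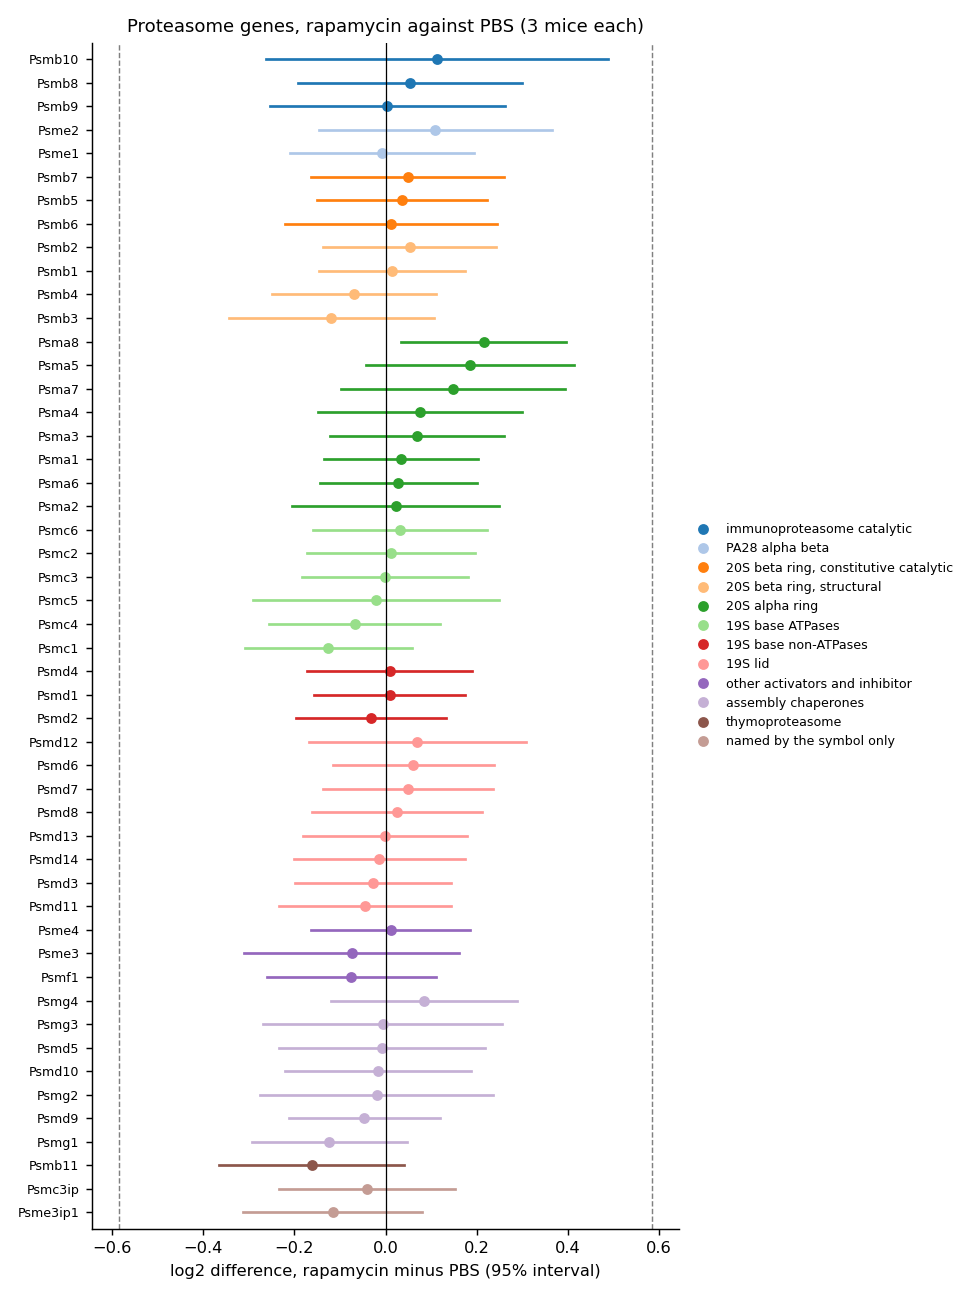
Difference in log2 expression, rapamycin minus PBS, of the 50 proteasome genes, grouped and coloured by role, with 95% intervals from limma as lines (3 mice per group) and dashed lines at a 1.5-fold change. Every interval lies between the dashed lines and 49 of 50 include no difference, Psma8 being the exception.

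**Figure D2:**
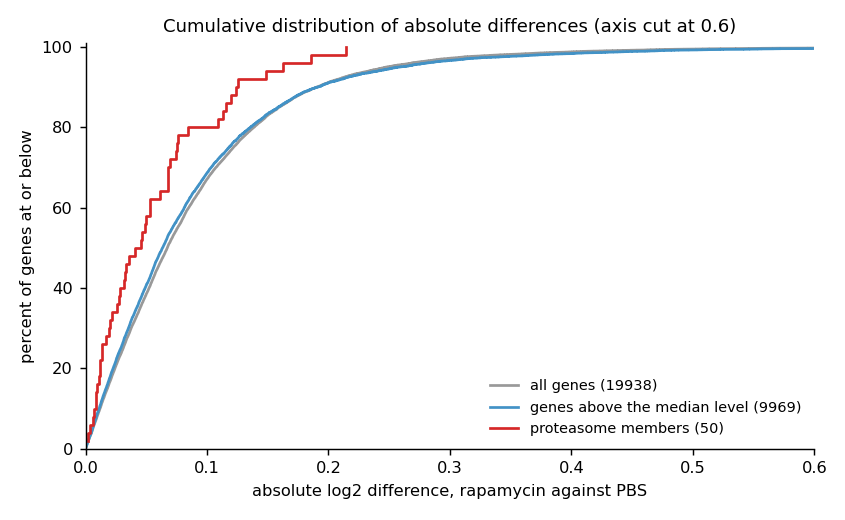
Percent of genes at or below each absolute log2 difference between rapamycin and PBS, for the 50 proteasome genes, the genes above the median level and all genes, with the horizontal axis ending at 0.6. The curve of the proteasome genes reaches 98% at 0.2, where the curve of all genes is at 91.1%.

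Psmb8, the inducible counterpart of Psmb5, measured 11.72, 11.65 and 11.86 in the PBS mice and 11.60, 11.94 and 11.86 in the rapamycin mice. The rapamycin mice included both the lowest and the highest value, so the groups overlapped throughout. The difference was 0.05 (SE 0.11, 95% interval -0.19 to 0.30, limma adjusted p = 0.9998).

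Psmb9, the counterpart of Psmb6, measured 10.52, 10.48 and 10.69 with PBS and 10.37, 10.76 and 10.56 with rapamycin. Again rapamycin replicate 1 was the lowest and rapamycin replicate 2 the highest mouse. The difference was 0.0036 (SE 0.11, 95% interval -0.25 to 0.26). Psmb10, the counterpart of Psmb7, measured 10.76, 10.48 and 10.97 with PBS and 10.55, 11.11 and 10.88 with rapamycin. It had the largest spread between mice of the 5 genes, and PBS replicate 2 was its lowest mouse. The group means were 10.73 ± 0.25 and 10.85 ± 0.28 (SD, n = 3 each), a difference of 0.11 (SE 0.16).

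Psme1 and Psme2, the alpha and beta chains of the PA28 cap, showed the same order at its ends. Psme1 measured 11.58, 11.47 and 11.58 with PBS and 11.41, 11.65 and 11.54 with rapamycin, a difference of -0.01 (SE 0.09) that turned to 0.01 when each array was centred on its median and to 0.02 with array weights. Psme2 measured 10.75, 10.76 and 10.81 with PBS and 10.65, 11.08 and 10.93 with rapamycin. Its PBS mice lay close together (SD 0.03) and its rapamycin mice on both sides of them (SD 0.22), with a difference of 0.11 (SE 0.11). A further probe set that names both Psme2 and its copy Psme2b was not counted among the members, and its means were 9.94 with PBS and 10.00 with rapamycin.

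Promoter sequences are shown for Psmb8 and Psmb9, neighbours in the MHC region that bracket Tap1, and for Psmb5, the constitutive counterpart of Psmb8, because the inducible genes are read against the constitutive ones. They are the 250 bases upstream of the annotated start, 5′ to 3′ on the gene's strand, from RefSeq on GRCm38.p6, and capitals mark matches to the motifs named below. The windows are chr17:34197945-34198194 (plus strand) for Psmb8, chr17:34187331-34187580 (minus strand) for Psmb9 and chr14:54617996-54618245 (minus strand) for Psmb5. The far end of the Psmb9 window reaches the first bases of Tap1, a transporter of peptides into the endoplasmic reticulum, which is read in the other direction.
Psmb8: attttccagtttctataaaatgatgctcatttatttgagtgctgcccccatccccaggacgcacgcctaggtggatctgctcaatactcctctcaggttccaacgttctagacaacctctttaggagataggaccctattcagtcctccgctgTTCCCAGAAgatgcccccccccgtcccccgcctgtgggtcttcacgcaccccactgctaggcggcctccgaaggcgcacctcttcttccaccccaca
Psmb9: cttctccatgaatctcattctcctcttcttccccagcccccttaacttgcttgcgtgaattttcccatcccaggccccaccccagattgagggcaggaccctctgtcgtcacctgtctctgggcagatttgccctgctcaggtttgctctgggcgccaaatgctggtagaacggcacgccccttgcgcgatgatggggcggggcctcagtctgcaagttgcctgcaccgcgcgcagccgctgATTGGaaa
Psmb5: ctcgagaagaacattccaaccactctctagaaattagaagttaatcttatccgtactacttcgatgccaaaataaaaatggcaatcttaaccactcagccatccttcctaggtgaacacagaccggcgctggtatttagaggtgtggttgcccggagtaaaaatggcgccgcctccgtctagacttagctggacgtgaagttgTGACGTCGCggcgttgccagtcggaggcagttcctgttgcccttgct

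The motifs were searched on both strands in the upstream 250 bases of the 42 members found in the promoter table and of 27025 genes in all. They were the interferon-response core (GAAA, any 2 bases, then GAAA again), the STAT site TTCNNNGAA, the core TGACNNNGC of the antioxidant-response element, to which the proteasome regulators Nfe2l1 and Nfe2l2 bind, and the CCAAT box. The STAT site was found in 1 of the 5 immunoproteasome promoters, that of Psmb8 at 97 to 89 bases upstream, and in 1 of the 37 other members, beside 7.14% of all promoters. The antioxidant-response core was found in 0 of 5 and 5 of 37, beside 10.1% of all promoters, and the match in Psmb5 lay 47 to 39 bases upstream. The interferon-response core was found in 0 of 5 and 3 of 37, beside 3.05%, and the CCAAT box in 1 of 5 and 15 of 37, beside 34.5%. These are letter matches in a short window, and binding was not tested. No promoter was in the table for Psma8, Psmb1, Psmb2, Psmb7, Psmc3, Psmd3, Psmd7 and Psmg2.

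The 3 constitutive cutting subunits differed little between the groups. Psmb5 measured 9.02, 8.93 and 9.14 with PBS and 9.06, 9.07 and 9.08 with rapamycin. Here the rapamycin mice lay closest together (SD 0.01), between the PBS values, and the difference was 0.04 (SE 0.08). Psmb6 measured 10.60, 10.68 and 10.82 with PBS and 10.54, 10.84 and 10.76 with rapamycin, a difference of 0.01 (SE 0.10). Psmb7 measured 10.45, 10.54 and 10.68 with PBS and 10.49, 10.69 and 10.64 with rapamycin, a difference of 0.05 (SE 0.09). Groups overlapped for each of the 3 genes.

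**Figure D3:**
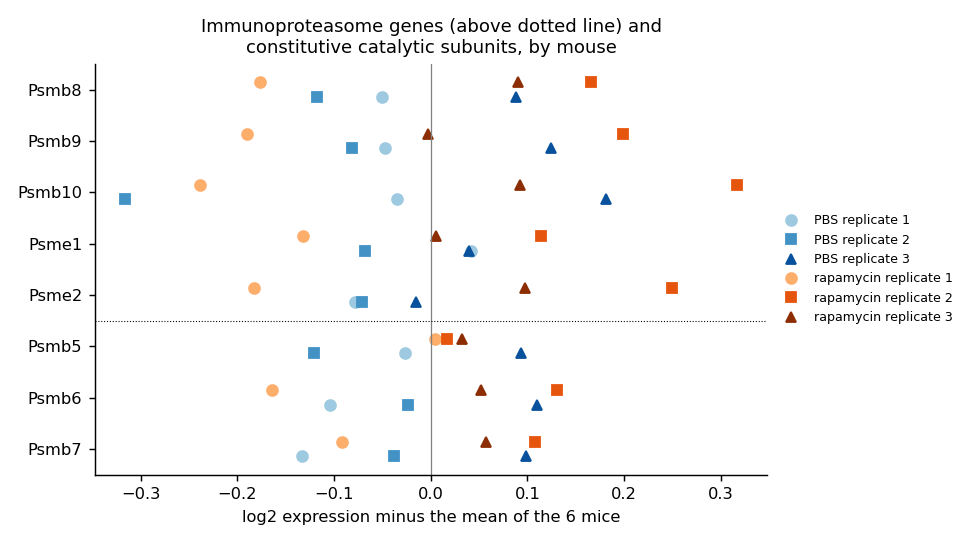
Log2 expression of the 5 immunoproteasome genes and the 3 constitutive catalytic subunits in each mouse, as the distance from that gene's mean over the 6 mice. Rapamycin replicate 2 is the highest mouse for each of the 5 immunoproteasome genes, and rapamycin replicate 1 the lowest for 4 of them.

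The balance between inducible and constitutive subunits was compared within each array. Relative to the PBS mean, the log2 ratio of Psmb8 to Psmb5 was -0.015, 0.012 and 0.003 in the PBS mice and -0.17, 0.16 and 0.07 in the rapamycin mice. The PBS mice thus lay within a narrow band (SD 0.01) and the rapamycin mice lay on both sides of it (SD 0.17), and the group means differed by 0.02. The ratio of Psmb9 to Psmb6 differed by -0.01 between the groups and that of Psmb10 to Psmb7 by 0.06. Over these 3 pairs the two-sided exact permutation test gave p of 1, 1 and 0.7, each 1 after Benjamini-Hochberg adjustment, and with 3 against 3 mice the smallest p it allows is 0.1. That is above 0.05, so this test could not have called a shift from constitutive to inducible subunits, or back. The ratios are of RNA, and the subunits built into proteasomes were not measured. The difference of the Psmb8 to Psmb5 ratio lay between -0.05 and 0.11 when single mice were left out, with the highest value without rapamycin replicate 1 and the lowest without rapamycin replicate 2.

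Variation between mice of one group was larger than the difference between the groups. The immunoproteasome genes had a median difference of 0.05, and the other members one of 0.01. Taking each gene's distance from its mean over the 6 mice, the median over the 5 immunoproteasome genes was -0.05, -0.08 and 0.09 in the PBS mice and -0.18, 0.20 and 0.09 in the rapamycin mice. Rapamycin replicates 1 and 2 were thus the ends of the order and lay 0.38 apart. Over the 45 other members the same medians lay between -0.04 and 0.05 in the PBS mice and between -0.06 and 0.05 in the rapamycin mice. The median range over the 6 mice was 0.39 for the immunoproteasome genes and 0.22 for the other members, beside 0.32 for all genes.

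The mice at the ends were counted for all members, beside the same shares of all genes above the median level. Rapamycin replicate 2 was the highest mouse for 5 of 5 immunoproteasome genes and 15 of 45 other members, beside 23.8% of those genes. Rapamycin replicate 1 was the lowest for 4 of 5 and 19 of 45, beside 34.7% of those genes. PBS replicate 3 was the highest for 0 of 5 and 14 of 45, beside 19.4%. As shares of the 45 other members these counts are 33.3%, 42.2% and 31.1%. The median difference of the immunoproteasome genes was 0.15 without rapamycin replicate 1, 0.11 without PBS replicate 3 and 0.02 without rapamycin replicate 3. It was -0.02 without PBS replicate 2 and -0.02 without rapamycin replicate 2, so its direction rested on single mice. With array weights, which count rapamycin replicate 1 least, it was 0.11. Without rapamycin replicate 1, groups did not overlap for 17 members, 11 of them higher with rapamycin. That is 34% of the members, and the share of all genes was 24.1% in the same comparison. All genes are an unlike baseline here. Rapamycin replicate 1 was the lowest mouse for 23.0% of all genes and 34.7% of those above the median level, to which 48 members belonged. Without this mouse, neither the share among genes above the median level nor the share of all genes higher with rapamycin was counted.

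Interferon genes and the markers of other cells were read beside these mice. Of the 21 measured interferon-induced genes, 12 were highest in rapamycin replicate 2 and 13 lowest in rapamycin replicate 1, or 57.1% and 61.9%. The same shares of genes above the median level were 23.8% and 34.7%. The median distance of the interferon-induced genes from the 6-mouse mean was 0.05, -0.16 and 0.14 with PBS and -0.23, 0.29 and -0.0038 with rapamycin. For genes above the median level these 2 mice were also the ends, at -0.05 in rapamycin replicate 1 and 0.03 in rapamycin replicate 2. Ifng, the interferon made by activated T cells, measured 9.98, 10.19 and 10.66 with PBS and 10.27, 11.16 and 10.60 with rapamycin. It was again highest in rapamycin replicate 2, but its lowest mouse was PBS replicate 1. The 12 neutrophil markers went the other way in the rapamycin mice, at 0.87, -0.29 and 0.24 in replicates 1, 2 and 3, against 0.39, 0.04 and -1.09 with PBS. The mean level of that list lay between 8.39 and 9.77 in PBS mice and between 9.06 and 10.26 in rapamycin mice. All 12 of its genes had a positive difference, and 0 passed limma's threshold. An unadjusted p under 0.05 was found for 1 of the 12, beside 4.67% of all genes. T cell markers lay at -0.09, -0.01 and 0.13 with PBS and -0.07, 0.06 and -0.04 with rapamycin. Of these 12 genes, 4 had a positive and 8 a negative difference, and 0 passed limma's threshold. Cd5 was the 1 with an unadjusted p under 0.05. It differed by -0.19, with every rapamycin mouse below every PBS mouse. Over the 6 mice the mean levels of the other marker lists lay between 5.53 and 5.71 for B cells, 7.77 and 8.49 for macrophages and monocytes, 5.62 and 5.88 for dendritic cells, 6.06 and 6.61 for erythroid cells and 5.59 and 6.03 for NK cells. In these lists 0 genes passed limma's threshold. An unadjusted p under 0.05 was reached by 3 of 9 macrophage and monocyte and 1 of 7 B cell genes. It was also reached by 2 of 6 NK cell, 0 of 8 dendritic cell and 0 of 7 erythroid genes. Over all genes the share was 4.67%, and groups did not overlap for 9.42%. The macrophage and monocyte list was lowest in rapamycin replicate 1, as the interferon-induced genes were, with a median distance of -0.42 there, -0.08 and 0.37 in rapamycin replicates 2 and 3, and 0.14, -0.14 and 0.10 with PBS. Rapamycin replicate 1 was the lowest mouse for 5 of its 9 genes. Of its genes 3 had a positive and 6 a negative difference. Spic, a transcription factor of red pulp macrophages, differed by -1.34 (limma, unadjusted p = 9.35e-05, adjusted p = 0.408), with every rapamycin mouse below every PBS mouse. Ms4a7 differed by -0.26 and Lyz2, lysozyme, by 0.29, and in both the groups did not overlap. All values of Ms4a7, from 3.86 to 4.34, lay below the array medians. Vcam1 differed by -0.90 with overlapping groups, and Csf1r by -0.01. Of the B cell genes, Cd79b differed by -0.54 (limma, unadjusted p = 0.000913, adjusted p = 0.747), with every rapamycin mouse below every PBS mouse. Cd79a differed by -0.05. Over the 7 B cell genes, 4 differences were positive and 3 negative, with a median of 0.0069. In the NK cell list 1 gene had a positive and 5 a negative difference. Itga2 differed by -0.65 with overlapping groups, Ncr1 by -0.24 and Klra8 by 0.27. All values of Ncr1 and Klra8 lay below the array medians. Differences lay between -0.38 and 0.15 for the dendritic cell genes and between -0.03 and 0.45 for the erythroid genes. The part of these cells and of interferon in the proteasome values was not tested.

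**Figure D4:**
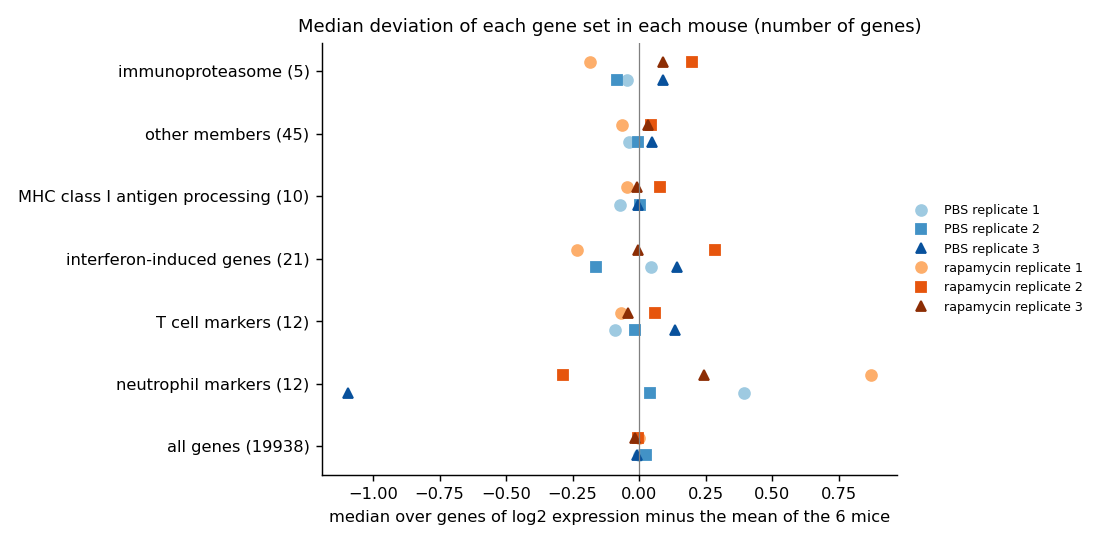
Median over the genes of each set of log2 expression minus the gene's mean over the 6 mice, one symbol per mouse, with the number of genes in parentheses. The immunoproteasome and interferon-induced genes are lowest in rapamycin replicate 1 and highest in rapamycin replicate 2. Genes above the median level, not drawn, have the same ends, at -0.05 and 0.03. MHC class I antigen processing genes are lowest in PBS replicate 1, at -0.07, and highest in rapamycin replicate 2, at 0.08. Neutrophil markers run from -1.09 in PBS replicate 3 to 0.87 in rapamycin replicate 1.

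The alpha ring, which forms the gate of the core, had positive differences in 8 of 8 genes, with a median of 0.07. Of all 19938 genes, 8922 had a positive difference. The alpha genes passed limma's test over all genes in 0 cases, with 1 at an unadjusted p under 0.05. Their median distance from the 6-mouse mean was -0.06, 0.11 and 0.06 in rapamycin replicates 1, 2 and 3. With PBS it was -0.07, -0.05 and 0.0028. Psma8, the form of the alpha ring made in testis, measured 5.28, 5.10 and 5.19 with PBS and 5.41, 5.43 and 5.37 with rapamycin. It was the only member whose rapamycin mice all lay above the PBS mice, with a difference of 0.21 (SE 0.08, unadjusted p = 0.0248, limma adjusted p = 0.9998). All 6 values lay below the array medians, and whether the gene was detected was not tested. Psma5 measured 8.67, 8.95 and 8.62 with PBS and 8.97, 8.89 and 8.94 with rapamycin, a difference of 0.19 (SE 0.10), which rested on 1 of its 2 probe sets and was 0.09 for their mean. Psma7 measured 9.93, 9.99 and 10.17 with PBS and 10.03, 10.36 and 10.15 with rapamycin, a difference of 0.15 (SE 0.11). The other 5 alpha genes (Psma1, Psma2, Psma3, Psma4 and Psma6) had differences from 0.02 to 0.08.

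Beta subunits without cutting sites were evenly split. Psmb1 and Psmb2 differed by 0.01 and 0.05 and Psmb4 by -0.07. Psmb3 measured 10.78, 10.61 and 10.81 with PBS and 10.46, 10.71 and 10.67 with rapamycin, a difference of -0.12 (SE 0.10) with overlapping groups. Psmb11, the cutting subunit of the thymoproteasome in thymic cortical epithelium, measured 5.26, 5.35 and 5.19 with PBS and 5.23, 5.08 and 4.996 with rapamycin. These values also lay below the array medians, and the difference was -0.16 (SE 0.09).

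In the base of the 19S cap, 6 ATPases unfold the substrate. Psmc1 measured 9.57, 9.60 and 9.59 with PBS and 9.50, 9.35 and 9.53 with rapamycin, so all rapamycin mice lay below the PBS mice. Its difference was -0.13 (SE 0.08, unadjusted p = 0.153), and its second probe set differed by -0.03. The other ATPases, Psmc2 to Psmc6, had differences from -0.07 to 0.03. Among the base subunits that are not ATPases, Psmd1 and Psmd4, a ubiquitin receptor, both differed by 0.01. Psmd2 measured 10.70, 10.69 and 10.74 with PBS and 10.73, 10.67 and 10.64 with rapamycin, a difference of -0.03 (SE 0.07).

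The lid of the cap, which removes ubiquitin chains, held 4 positive and 4 negative differences, from -0.05 for Psmd11 to 0.07 for Psmd12. Psmd14, the enzyme that cuts the chain, differed by -0.01 (SE 0.08). Psmd6 had the smallest p of this group and measured 9.21, 9.27 and 9.25 with PBS and 9.22, 9.31 and 9.39 with rapamycin, a difference of 0.06 (SE 0.08) with overlapping groups. Psmd3, Psmd7, Psmd8 and Psmd13 lay between these ends.

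Assembly chaperones, which help the core and the cap form, were negative in 6 of 7 genes, with a median of -0.02. Of all 19938 genes, 11016 had a negative difference. Psmg1, a chaperone of the alpha ring, measured 8.31, 8.37 and 8.36 with PBS and 8.18, 8.21 and 8.29 with rapamycin. The groups did not overlap, and the difference was -0.12 (SE 0.07, unadjusted p = 0.133). Psmd9, a chaperone of the base, also had groups that did not overlap, with PBS values of 8.22, 8.19 and 8.20 and rapamycin values of 8.10, 8.18 and 8.19. The gap was small, and the difference was -0.05 (SE 0.07). Psmd5, Psmd10, Psmg2 and Psmg3 had differences from -0.02 to -0.01, and Psmg4 one of 0.08.

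Of the remaining caps and regulators, Psmf1, which encodes a proteasome inhibitor, measured 9.99, 10.05 and 10.07 with PBS and 9.86, 10.04 and 9.99 with rapamycin, a difference of -0.07 (SE 0.08). Psme3, the nuclear PA28 chain, differed by -0.07 (SE 0.10) and Psme4, a single-chain activator, by 0.01 (SE 0.08). The rule also took in Psme3ip1 and Psmc3ip, which encode interaction partners and not subunits, at -0.12 (SE 0.09) and -0.04 (SE 0.08). Psme3ip1 measured 8.21, 8.06 and 8.10 with PBS and 7.90, 8.11 and 8.02 with rapamycin.

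Partners of the proteasome that carry other symbols were read from a list of assembly factors, ubiquitin shuttles, deubiquitinases and regulators, of which 19 genes were measured. In limma's test 0 passed in either direction and 0 had an unadjusted p under 0.05. Positive differences numbered 12, and the median was 0.02. Groups did not overlap for 2 of the 19 genes, or 10.5%, beside 9.42% of all genes. Ngly1, the enzyme that removes sugars from Nfe2l1 so that it can drive proteasome genes, measured 9.08, 9.10 and 9.19 with PBS and 8.82, 9.03 and 9.01 with rapamycin. All rapamycin mice lay below the PBS mice, and the difference was -0.17 (SE 0.09, limma adjusted p = 0.9998). Nfe2l1 itself differed by 0.08 (SE 0.08) and Nfe2l2 by -0.01 (SE 0.12). Uchl5, a deubiquitinase of the cap, differed by 0.12 (SE 0.10). Pomp, the maturation factor of the core, measured 10.29, 10.28 and 10.28 with PBS and 10.40, 10.36 and 10.32 with rapamycin, a difference of 0.08 (SE 0.07) with groups that did not overlap.

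Genes of MHC class I antigen processing, which act on the peptides the immunoproteasome makes, passed limma's threshold in 0 of 10 measured cases in either direction, with 0 at an unadjusted p under 0.05, 7 positive differences and a median of 0.02. Tap1, which shares the region upstream of Psmb9, measured 11.49, 11.58 and 11.56 with PBS and 11.54, 11.72 and 11.52 with rapamycin, a difference of 0.05 (SE 0.08). Its highest mouse was rapamycin replicate 2, as for Psmb9 and for 23.8% of genes above the median level. Its lowest mouse was PBS replicate 1, while that of Psmb9 was rapamycin replicate 1. Erap1, which trims peptides, differed by 0.13 (SE 0.09) and Tap2 by 0.06 (SE 0.10). Interferon signalling genes passed in 0 of 14 cases, with 1 at an unadjusted p under 0.05, 8 positive differences and a median of 0.03. Ifnar2, a chain of the type I interferon receptor, measured 9.31, 9.39 and 9.25 with PBS and 8.91, 9.03 and 9.05 with rapamycin, a difference of -0.32 (SE 0.08, unadjusted p = 0.00391, limma adjusted p = 0.848). Irf7 differed by -0.35 (SE 0.18). Of the interferon-induced genes 0 of 21 passed, with 2 at an unadjusted p under 0.05, 9 positive differences and a median of -0.02. Ifit3 differed by -0.65 (SE 0.20) and Gbp5, which interferon gamma induces, by 0.31 (SE 0.14).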

How the data were processed

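The deposited values are log2 expression per probe set, which the authors made with Affymetrix Expression Console and RMA, per the submitters' processing notes. No version is given there. RMA gives all arrays one distribution of probe intensities, so a shift shared by most genes would not be seen, and it compresses low values. Of 35556 probe sets, 21789 named exactly 1 gene symbol in the platform table and gave 19938 genes, each read from the probe set whose mean over the arrays was highest. Members had 56 such probe sets, and 5 genes had several. The 6 further probe sets differed by -0.06 to 0.08, 1 of them against the sign of the one used.

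Groups and replicate numbers came from the sample titles. Tests used limma 3.58.1 in R 4.3.3 (lmFit, then eBayes, with treatment as the single factor, two-sided, 8.44 degrees of freedom), which was also tested on simulated data, and scipy 1.17.1 for exact permutation. Figures used matplotlib 3.10.9 in Python 3.11.15. Promoters were linked to the genes by gene identifier, from a RefSeq table of GRCm38.p6. The members and lists were chosen with earlier results of these data known.

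Values per mouse were given for the immunoproteasome genes, their constitutive counterparts, the member with the smallest p of each role and the 3 largest differences in each direction, and for the 2 genes with the smallest p of each pathway list in part. Psmd9, Pomp, Ifng, Tap1, Nfe2l1, Nfe2l2, the marker genes of other cells and the members given by range or difference alone are named in addition, chosen with their values known. Alternatives were other moderation, array weights, a filter on low levels, 2 scalings, 2 probe set rules, a replicate block, a narrower member list and leaving out each mouse.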

Additional observations from a re-analysis of the deposited data

How the results depend on the processing

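The count of proteasome members past the threshold was 0 under each of the 14 alternatives that refit the genes, and the lowest adjusted p of a named member was 0.604, without rapamycin replicate 1. Directions were less stable: 12 of the 19 members named by rule kept theirs under every alternative run for them. Psma8 and Psmb11, both among the 12, fell below the filter on low levels and have no value under it. Psme1 turned to 0.016 with array weights and to 0.0077 with median centring, and the ratio of Psmb8 to Psmb5 to -0.00025 with quantile normalisation. With single mice left out, differences ranged from -0.017 to 0.26 for Psmb10, -0.017 to 0.15 for Psmb8, -0.095 to 0.0998 for Psmb9, -0.067 to 0.055 for Psme1, -0.016 to 0.092 for Psmb5, -0.050 to 0.097 for Psmb6 and -0.0060 to 0.11 for Psmb7. Without a change of sign, they ranged from 0.012 (without rapamycin replicate 2) to 0.23 (without rapamycin replicate 1) for Psme2, from 0.059 to 0.22 for Psma7, 0.12 to 0.29 for Psma5, 0.020 to 0.10 for Psmd6, -0.18 to -0.042 for Psmb3, -0.16 to -0.068 for Psmc1, -0.16 to -0.062 for Psme3ip1, -0.11 to -0.022 for Psmf1 and -0.057 to -0.013 for Psmd2. The ratios to the constitutive partner ranged from -0.053 to 0.11 (Psmb8), -0.044 to 0.018 (Psmb9) and -0.058 to 0.15 (Psmb10). The median of the immunoproteasome genes ranged from -0.017 to 0.15, that of the other members from -0.017 to 0.042, and their gap from -0.020 to 0.11. Members with groups that do not overlap numbered 5 to 17, with fewer mice to compare. There were 6 without PBS replicate 1 (12% of members, beside 16.3% of all genes). Counts were 6 without PBS replicate 2 (12%, beside 19.8%) and 7 without PBS replicate 3 (14%, beside 19.5%). Without rapamycin replicate 1 there were 17 (34%, beside 24.1%). The last counts were 5 without rapamycin replicate 2 (10%, beside 16.4%) and 5 without rapamycin replicate 3 (10%, beside 18.2%). Shares among genes above the median level were not counted in these fits.

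Same-numbered mice were not treated as pairs in the main test. Their deviations correlated at 0.09, -0.19 and 0.19, and those of differently numbered mice at -0.44 to 0.37. With 3 mice per group these values cannot show whether the mice were paired. With a replicate block, 0 genes of all passed in place of 1, and 0 members. With single mice left out that count was 0 to 7, and it was 7 without rapamycin replicate 1 and 0 without any other mouse. Scaling moved the median of all genes by at most 0.02. With 3 mice per group, small differences could not be told from the spread.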
